A study of Mus musculus with 23 samples.

Results

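Bone marrow-derived macrophages (BMDMs, macrophages grown from bone marrow) of mice labelled Selenow knock-out were compared with BMDMs of wild-type mice after 4 h of bacterial lipopolysaccharide (LPS) at 100 ng/ml. The comparison set 3 knock-out libraries, numbered 16, 17 and 18, against 3 wild-type libraries, numbered 4, 5 and 6, out of 23 RNA-seq libraries in the series. All genes of the count table entered, and 18083 of 55401 passed the filter on low counts. The other groups used here are the same genotypes without LPS (0 h) and after 8 and 24 h of LPS at the same dose, with 3 libraries each except for 2 in the knock-out at 24 h. The strain, age and sex of the mice, the deleted part of Selenow and the relation of libraries to animals are not given by the labels, so p-values measure the spread between libraries, which may be technical.

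Selenow encodes selenoprotein W, a small thioredoxin-like protein that carries selenocysteine and is linked to redox control and to binding of 14-3-3 proteins. LPS is sensed by Toll-like receptor 4, which signals through the adaptors Myd88 and Ticam1 to NF-kB, AP-1 and interferon regulatory factors and switches on cytokines, chemokines and, through interferon beta, interferon-stimulated genes. At 4 h this programme is in full course in BMDMs.

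The libraries at 4 h held 39976550 to 41326792 counted fragments and 21722 to 22545 genes with at least 1 fragment. Levels are given as CPM, fragments of a gene relative to the library's total scaled with edgeR's TMM factors. For a gene with no fragment in a library the upper limit, set at 3 counts, was 0.0794 to 0.0926 CPM on this scale, for counting error alone. The macrophage markers were high in all 6 libraries, with a summed level of 27650 to 34880 CPM in knock-out and 26260 to 29700 CPM in wild-type libraries over 16 genes such as Lyz2, Csf1r and Adgre1, and none of the 16 was called. Deviations from the group means ran across the genotypes. Library 17 of the knock-out deviated together with wild-type library 6 (r = 0.77 across 10415 genes, which are not independent). Library 18 deviated the opposite way from library 6 (r = -0.76) and together with libraries 4 and 5 (r = 0.59 and 0.60). Library 16 had r = 0.36 and 0.40 with libraries 4 and 5. The deviations of a group cancel out for each gene, so opposite signs among its libraries are partly forced. Libraries 16, 18, 4 and 5 are called the first set below and libraries 17 and 6 the second, a division read from the data and not from the labels. Library 17 also stood apart in stromal genes, with 15.6 CPM of the collagen gene Col1a1 against 0.648 and 3.57 CPM in the other knock-out libraries and 0.806, 1.57 and 0.556 CPM in the wild-type libraries.

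Selenow, on chromosome 7 from 15917208 to 15922402 on the minus strand (GRCm38), held 191, 82.6 and 81.1 CPM in knock-out libraries 16, 17 and 18, against 202, 181 and 203 CPM in wild-type libraries 4, 5 and 6. Libraries 17 and 18 lay below all wild-type libraries, and the library labelled knock-out number 16 lay within the wild-type range. The mean was 118 ± 63.2 CPM in knock-out and 195 ± 12.1 CPM in wild-type cells (SD, n = 3 each), a log2 fold change of -0.72 ± 0.37 (SE) that did not pass edgeR's quasi-likelihood test (adjusted p 0.735). Without library 16 the log2 fold change was -1.25, also not called (adjusted p 0.202). The direction of each difference below is therefore between libraries labelled knock-out and libraries labelled wild-type. Whether the fragments counted come from intact transcripts cannot be read from counts per gene.

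The test called 224 genes at an adjusted p under 0.05 (Benjamini-Hochberg over all genes tested), which is 1.24% of those tested. Of these, 91 (0.503%) were higher and 133 (0.735%) lower in knock-out cells, and 1311 genes had an unadjusted p under 0.05. In the first library set alone 674 were called and the balance turned, with 361 higher and 313 lower, while a term for the set gave 328, with 140 higher and 188 lower. The median log2 fold change over all genes was 0.0096. The calls were large: 62 of the higher and 113 of the lower genes differed by at least 1 on the log2 scale, and 10 higher and 32 lower genes by at least 4. The 3 libraries of one group did not overlap the 3 of the other in any called gene, and in 12.3% of all genes tested. By kind of gene, 138 calls were protein-coding (1.04% of those tested), 41 were pseudogenes (2.36%, of which 35 were lower) and 45 were non-coding or of another kind (1.44%). A predicted-locus or clone name was carried by 81, which are counted but not named unless a result turns on them. Without the 4 knock-out libraries of the series whose Selenow level lay near wild-type (13, 16, 19 and 22) 144 genes were called, 139 of them among the 224. Without libraries 16, 17 or 18 in turn, 183, 217 and 176 were called.

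**Figure D1:**
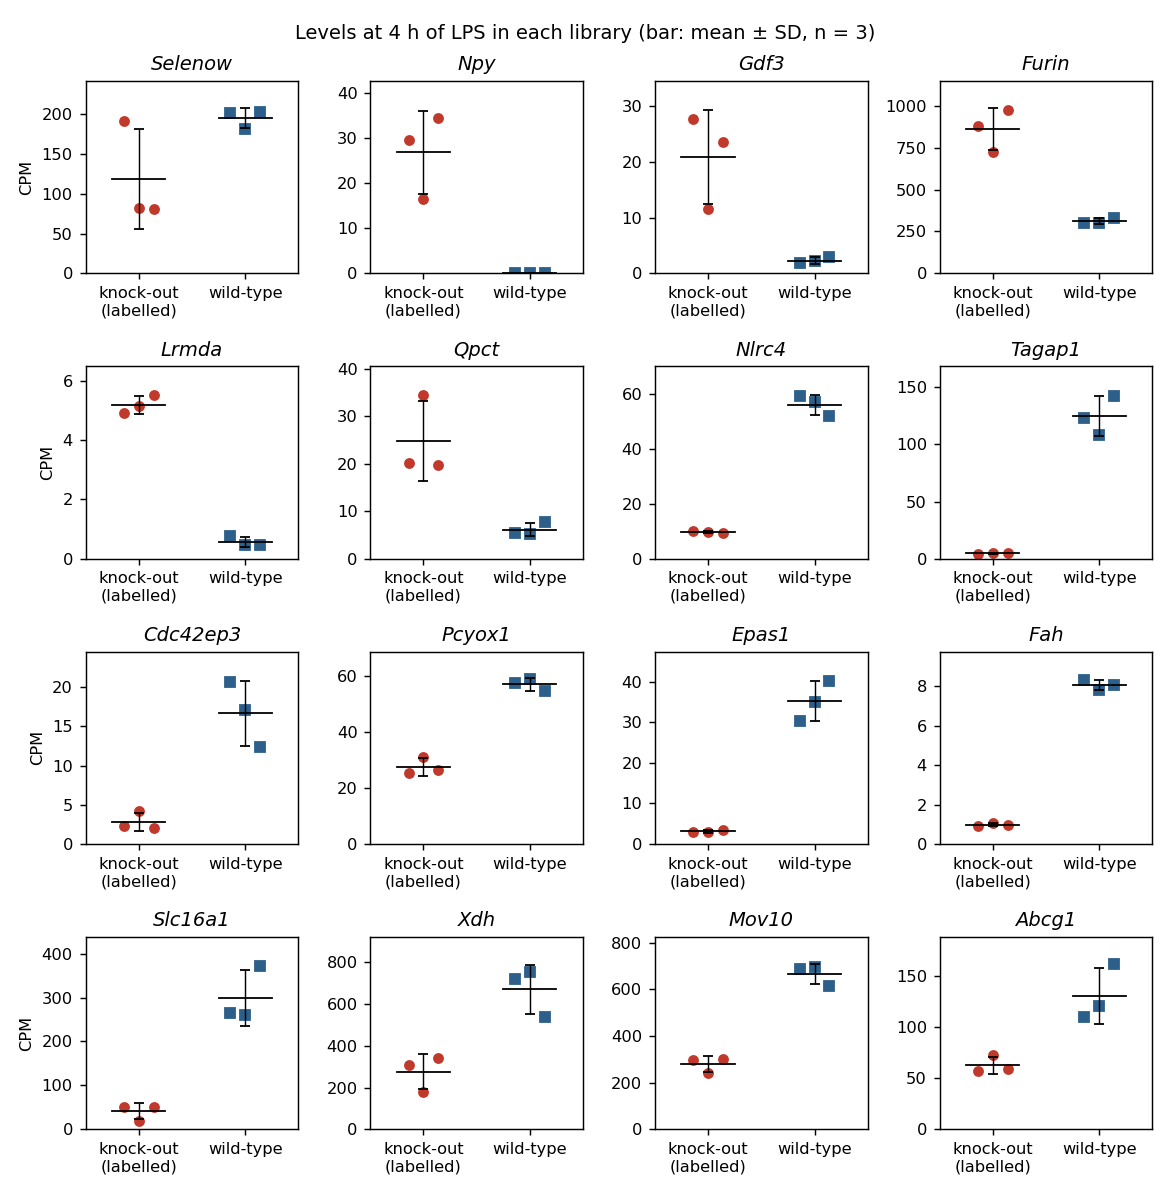
Levels in CPM (y axes, each from 0) of 16 genes in the 3 labelled knock-out libraries (red circles) and the 3 wild-type libraries (blue squares) at 4 h of LPS, with mean and SD as black bars. Selenow overlaps because library 16 held 191 CPM, while the groups of the other 15 genes do not overlap.

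The cytokine, chemokine and interferon lists held no called gene at 4 h, although single genes with higher wild-type levels at 4 h than at 0 h, such as Nlrc4, Tagap1 and Mov10, were called. Of 34 gene lists drawn from textbook knowledge, with 612 genes tested, 9 genes were called (1.47%, beside 1.24% of all genes), and 28 lists held no called gene. These counts are from the fit without library sets. With a term for the sets, 16 list genes were called (11 higher and 5 lower), 7 more than without, among them Il23a, a subunit of interleukin 23 (-2.25, adjusted p 0.00995), the eotaxin gene Ccl24 (1.82, adjusted p 0.00489), and Pla2g7, which breaks down platelet-activating factor (-1.21, adjusted p 0.0158). None of 23 cytokine genes was called (median log2 fold change 0.02). Il6 averaged 655 ± 333 CPM in knock-out and 645 ± 333 CPM in wild-type cells, Tnf 1966 ± 794 and 1993 ± 1134 CPM, and Il1b 3510 ± 165 and 2593 ± 343 CPM (SD, n = 3 each). Ifnb1, which encodes interferon beta, had a log2 fold change of -1.56 ± 0.68 that was not called (adjusted p 0.613), with 11.5 ± 8.60 CPM in knock-out and 34.0 ± 43.3 CPM in wild-type cells, of which library 6 held 84 CPM. A p that misses the threshold does not show that levels were alike.

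None of 22 chemokine genes (median -0.01) and none of 40 interferon-stimulated genes (median -0.03) was called. The antiviral gene Rsad2 averaged 18520 ± 3949 CPM in knock-out and 17680 ± 2252 CPM in wild-type cells, and the chemokine gene Cxcl10 12540 ± 658 and 12790 ± 588 CPM. Of 25 NF-kB subunits and feedback regulators none was called, while 23 had a log2 fold change above 0 (median 0.13), among them Tnfaip3, which encodes the deubiquitinase A20, at 0.09 ± 0.35. The receptor side gave no call either, with 0 of 23 genes of Toll-like receptor 4 signalling (median 0.05). Of 22 classical activation markers none was called. Nos2, the inducible nitric oxide synthase, held 3013 ± 883 and 3802 ± 937 CPM, and Acod1, which makes itaconate, 11420 ± 393 and 11270 ± 822 CPM in knock-out and wild-type cells. None of 17 alternative activation markers (median 0.27) and none of 17 eicosanoid genes (median 0.14) was called.

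The redox lists, the group nearest to the known role of selenoprotein W, held no call. The oxidoreductase gene Xdh and the oxidase gene Pcyox1, which are in none of these lists, were called lower. Of 20 selenoprotein genes none was called (median 0.0040), including Selenow itself, Gpx1 (395 ± 28.5 CPM in knock-out, 378 ± 43.3 CPM in wild-type cells) and Txnrd1 (734 ± 44.9 and 631 ± 15.1 CPM), which encode glutathione peroxidase 1 and thioredoxin reductase 1. Selenop, which encodes the secreted selenium carrier, ranged from 927 to 3671 CPM over the knock-out and from 565 to 2194 CPM over the wild-type libraries. None of 13 genes of selenocysteine synthesis and insertion and none of 7 genes of 14-3-3 proteins was called. Of 30 NRF2 targets and antioxidant enzymes none was called, while 23 had a log2 fold change above 0 (median 0.16, beside 0.0096 over all genes), with Slc7a11, the cystine transporter, at 0.31 ± 0.40 and Hmox1, the haem oxygenase, at 0.11 ± 0.32.

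Metabolic lists held 1 call. Abcg1, an exporter of cholesterol to lipoproteins, held 56.8, 72.3 and 58.6 CPM in knock-out libraries against 110, 120 and 161 CPM in wild-type libraries (log2 fold change -1.06 ± 0.15, adjusted p 0.000323). All knock-out libraries lay below all wild-type libraries. It was the only called gene of 25 in cholesterol synthesis, uptake and efflux, and Abca1, the other main exporter, had 450 ± 93.9 and 483 ± 132 CPM in knock-out and wild-type cells and was not called. None was called of 13 mitochondrially encoded mRNAs, 34 nuclear-encoded respiratory chain genes, 23 genes of the tricarboxylic acid cycle and 24 of glycolysis and the hypoxia response, with medians from -0.01 to 0.02. In the stress lists Sesn2, a stress-induced inhibitor of mTORC1, was the only call, with 15.1, 15.8 and 21.7 CPM in knock-out and 12.8, 9.87 and 8.76 CPM in wild-type libraries (0.74 ± 0.16, adjusted p 0.0222). Its call was lost without library 5, 6 or 18 (adjusted p 0.114 to 0.205) and without libraries 13, 16, 19 and 22 (0.0532). In the 6 libraries at 4 h alone Sesn2 was not called either (adjusted p 0.313). At 0, 8 and 24 h its log2 fold change was below 0 (-0.41, -0.59 and -0.13) and not called. No gene of S phase (0 of 23, median -0.32) or of G2 and M phase (0 of 23, median -0.21) was called, though 2 and 1 of them had a log2 fold change above 0. The S phase sum was 555 and 525 CPM in knock-out libraries 16 and 18 against 570 and 609 CPM in wild-type libraries 4 and 5. In the second set, which has no replicates, it was 898 CPM in knock-out library 17 against 1037 CPM in wild-type library 6. The sets were read from the data, and over all 6 libraries the S phase sums of the genotypes overlapped. The G2 and M phase sum was 625 and 540 CPM against 759 and 824 CPM in the first set, and 1272 CPM in knock-out library 17 against 1168 CPM in wild-type library 6.

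**Figure D2:**
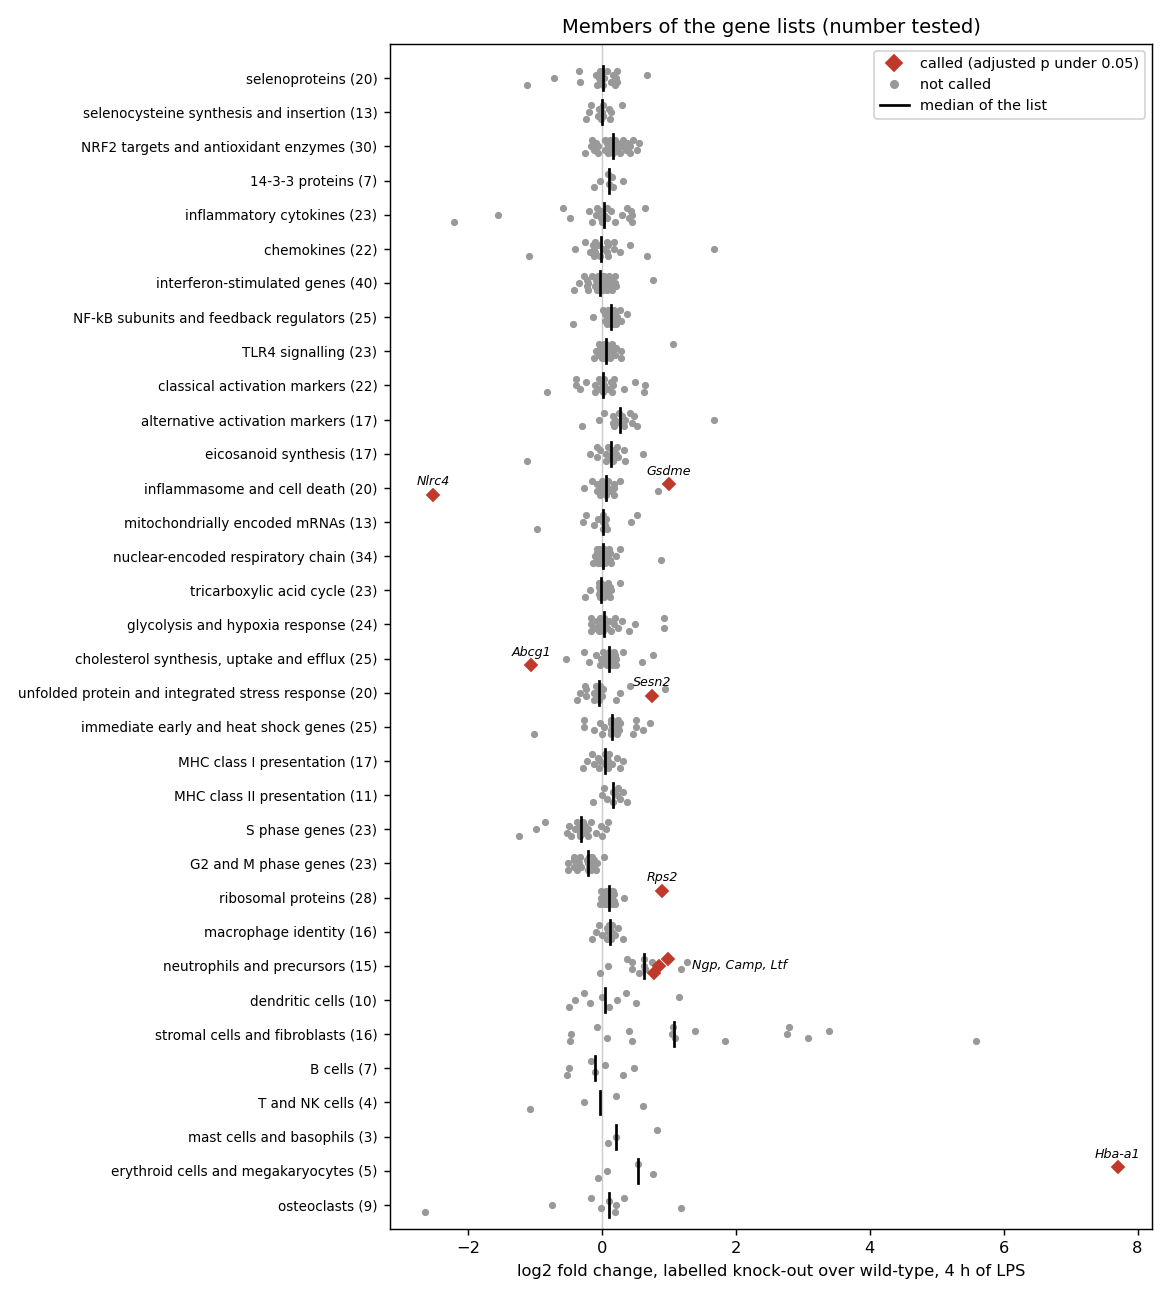
Log2 fold change of labelled knock-out over wild-type at 4 h of LPS (x axis) for each tested member of 34 gene lists (rows, number tested in brackets), with called genes as red diamonds and list medians as black bars. Of the 612 genes 9 are called, and the medians of the cytokine, chemokine and interferon lists lie between -0.03 and 0.02.

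The inflammasome and cell death list held 2 called genes of 20, of which Nlrc4 was lower in knock-out cells. Nlrc4 encodes the scaffold that, with Naip sensors of bacterial flagellin and secretion system parts, activates caspase-1. It held 9.97, 9.88 and 9.33 CPM in knock-out libraries against 59.2, 57.0 and 51.9 CPM in wild-type libraries at 4 h, so that the highest knock-out library lay far below the lowest wild-type library (log2 fold change -2.53 ± 0.27, adjusted p 9.15e-06). The rest of its pathway was not called. Naip2 averaged 166 ± 29.2 CPM in knock-out and 167 ± 29.6 CPM in wild-type cells, Casp1 210 ± 54.6 and 213 ± 40.6 CPM, Gsdmd, the pore-forming gasdermin D, 147 ± 31.2 and 138 ± 21.9 CPM, and Nlrp3, another inflammasome scaffold, 619 ± 9.14 and 548 ± 8.51 CPM. The other called gene was Gsdme, the pore-forming gasdermin E, higher in knock-out libraries with 6.67, 7.33 and 6.65 CPM against 2.99, 3.10 and 4.24 CPM in wild-type libraries (0.998 ± 0.21, adjusted p 0.0123). Its call was lost without library 4, 5 or 17 (adjusted p 0.0535 to 0.101) and without libraries 13, 16, 19 and 22 (0.0792). In the 6 libraries at 4 h alone Gsdme was not called either (adjusted p 0.0756).

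Nlrc4 belongs to the few genes whose genotype difference at 4 h differed from that before LPS. Of 18083 genes 8 were called for this interaction (0.0442%), and 7 of them are also among the 224. Without LPS, Nlrc4 held 18.9, 14 and 20.4 CPM in knock-out libraries against 13.1, 13 and 8.32 CPM in wild-type libraries (0.63 ± 0.26, not called), and the knock-out libraries lay above the wild-type ones. The genotype difference at 4 h minus that at 0 h was -3.16 ± 0.38 (adjusted p 0.000569). At 8 h the mean was 35.7 ± 7.65 CPM in knock-out and 102 ± 11.5 CPM in wild-type cells (-1.52 ± 0.26, adjusted p 0.00191), and at 24 h 25.2 ± 9.99 CPM (n = 2) and 39.9 ± 17.4 CPM (n = 3), which was not called.

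Tagap1, whose name stands for T cell activation GTPase-activating protein, was far lower in knock-out cells at 4 h. It held 4.29, 5.33 and 4.59 CPM in knock-out libraries against 123, 108 and 143 CPM in wild-type libraries at 4 h (-4.71 ± 0.27, adjusted p 1.07e-09), and no library of one group came near the other. Without LPS the libraries held 6.88, 7.15 and 6.72 CPM in knock-out and 10.5, 9.73 and 10.4 CPM in wild-type cells, so its level at 4 h was above that at 0 h only in the wild-type means (interaction -4.15 ± 0.35, adjusted p 4.83e-06). Tagap1 has a near-identical copy, Tagap, at 310 ± 63.9 CPM in knock-out and 384 ± 40.6 CPM in wild-type cells (-0.31 ± 0.34, not called), and its exons overlap Gm49719, which was called in the same direction (-3.95). Summed with its copy, Tagap1 gave 314 ± 64.3 CPM in knock-out and 509 ± 57.6 CPM in wild-type cells. How fragments were split between the copies is uncertain.

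Cdc42ep3, an effector of the GTPase Cdc42 that acts on the cytoskeleton, held 2.35, 4.19 and 2.0 CPM in knock-out libraries against 20.7, 17.1 and 12.4 CPM in wild-type libraries (-2.54 ± 0.24, adjusted p 1.60e-06), and its exons overlap another called gene. At 0 h it averaged 30.4 ± 2.46 and 36.1 ± 4.57 CPM in knock-out and wild-type cells, and the interaction was -2.30 ± 0.32 (adjusted p 0.00502). Pcyox1, the lysosomal prenylcysteine oxidase, held 25.3, 31.3 and 26.4 CPM in knock-out libraries against 57.4, 59.1 and 54.7 CPM in wild-type libraries (-1.05 ± 0.14, adjusted p 9.28e-05). Its levels without LPS were 133 ± 14.7 and 123 ± 16.8 CPM, and its interaction was -1.16 ± 0.19 (adjusted p 0.0220). In both genes the mean at 4 h lay below that at 0 h in each genotype, and further below in knock-out cells. Phactr1, a regulator of actin and of protein phosphatase 1, and Slc16a1, the lactate transporter MCT1, were also lower in knock-out cells at 4 h. Their interaction was not called. Unlike Cdc42ep3 and Pcyox1, their means at 4 h lay above those at 0 h in each genotype, for Phactr1 in knock-out cells by less than the SD. At 0 h Slc16a1 averaged 12.6 ± 6.27 CPM in knock-out and 35.5 ± 18.8 CPM in wild-type cells. Slc16a1 held 52.0, 19.9 and 52.1 CPM in knock-out libraries against 264, 260 and 371 CPM in wild-type libraries (-2.85 ± 0.41, adjusted p 0.000354), and was not called at 0, 8 or 24 h (adjusted p 0.0752, 0.693 and 0.400). Phactr1 averaged 2.34 ± 0.644 CPM in knock-out and 11.3 ± 1.75 CPM in wild-type cells (-2.28 ± 0.34, adjusted p 0.000445).

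The 250 bases before the RefSeq start of these 4 interaction genes are shown because their genotype difference at 4 h differed from that at 0 h. They are from RefSeq on GRCm38.p6, 5′ to 3′ on the minus strand of each gene, at chr17:74459109-74459358 (Nlrc4), chr17:6961157-6961406 (Tagap1), chr17:79355092-79355341 (Cdc42ep3) and chr6:86397151-86397400 (Pcyox1). Capitals mark matches on either strand to a kappa B motif (GGG, any 5 bases, CC).
Nlrc4: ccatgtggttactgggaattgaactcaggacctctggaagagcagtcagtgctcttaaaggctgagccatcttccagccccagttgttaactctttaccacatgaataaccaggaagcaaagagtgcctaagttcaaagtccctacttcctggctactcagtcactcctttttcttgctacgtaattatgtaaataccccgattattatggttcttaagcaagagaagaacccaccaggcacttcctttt
Tagap1: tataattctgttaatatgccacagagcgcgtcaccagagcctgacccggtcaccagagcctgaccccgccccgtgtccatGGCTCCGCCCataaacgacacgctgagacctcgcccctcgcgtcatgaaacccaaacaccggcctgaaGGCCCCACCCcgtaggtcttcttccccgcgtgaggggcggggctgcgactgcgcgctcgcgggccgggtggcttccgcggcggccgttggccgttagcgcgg
Cdc42ep3: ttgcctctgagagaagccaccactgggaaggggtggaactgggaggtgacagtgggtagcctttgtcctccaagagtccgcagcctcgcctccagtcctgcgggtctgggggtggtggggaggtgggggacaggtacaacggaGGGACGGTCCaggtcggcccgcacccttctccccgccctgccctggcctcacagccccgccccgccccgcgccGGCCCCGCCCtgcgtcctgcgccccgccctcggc
Pcyox1: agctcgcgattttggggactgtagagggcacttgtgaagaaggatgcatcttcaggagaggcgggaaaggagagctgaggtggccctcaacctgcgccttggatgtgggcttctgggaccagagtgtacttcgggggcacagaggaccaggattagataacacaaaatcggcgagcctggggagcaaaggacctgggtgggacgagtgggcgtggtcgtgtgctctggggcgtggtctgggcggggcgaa
Tagap1 and Cdc42ep3 each hold 2 kappa B matches, and Nlrc4 and Pcyox1 hold none. Of 32851 RefSeq windows of the same length 45.8% hold at least 1. None of the 4 holds an AP-1 motif (TGANTCA, in 6.75% of windows), an interferon-stimulated response element (GAAA, any 2 bases, GAAA, 2.98%) or a GAS motif (TTCNNNGAA, 7.02%), all searched on both strands. A match describes the letters only.

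**Figure D3:**
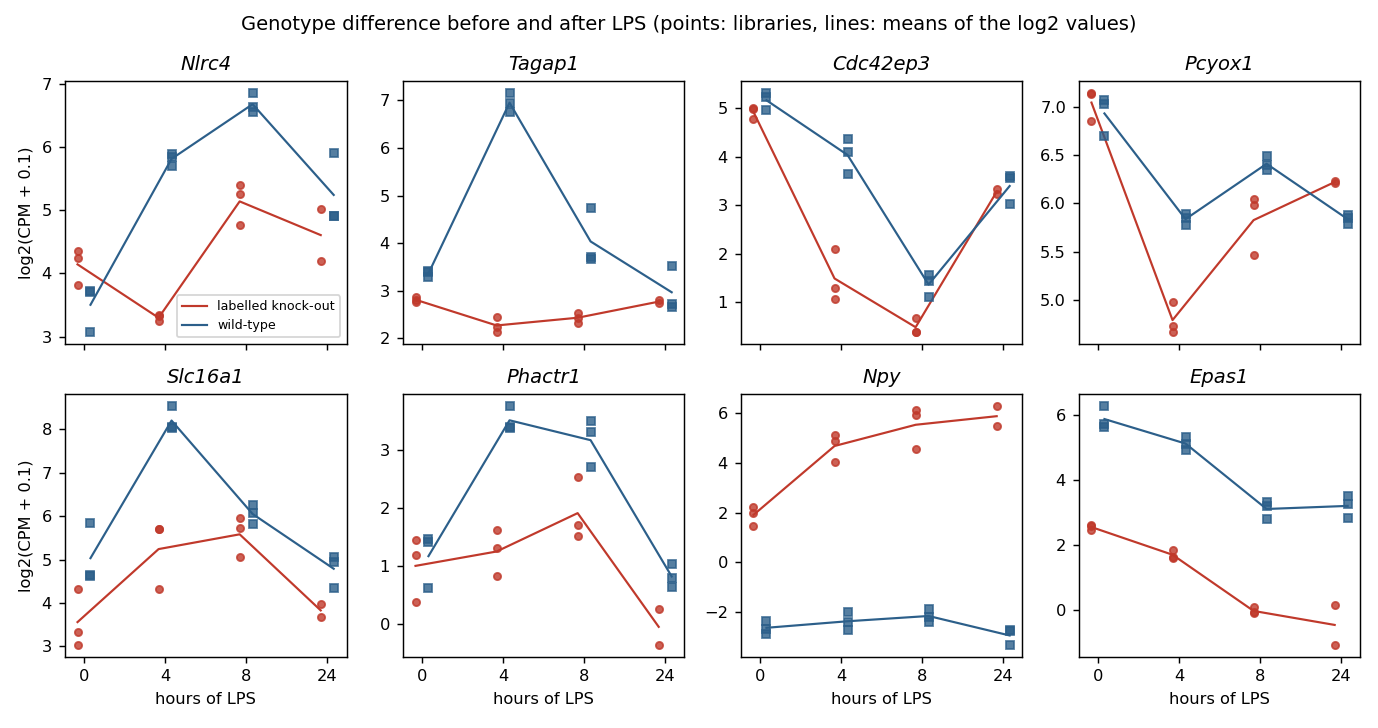
Level as log2(CPM + 0.1) (y axes) against hours of LPS (x axes, 0, 4, 8 and 24 h) for 8 genes called at 4 h, with libraries as points and group means as lines, labelled knock-out in red and wild-type in blue. Nlrc4, Tagap1, Cdc42ep3 and Pcyox1 are called at 4 h and not at 0 h, while Npy and Epas1 are called at all 4 times.

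Of the 224 genes 124 (55.4%) were called in the same direction at 0 h, where 274 genes (1.52%) were called, 156 (69.6%) at 8 h, where 397 genes (2.20%) were called, and 105 (46.9%) at 24 h, where 216 genes (1.19%) were called. None was called in the opposite direction at any of these times. The libraries compared are not those of 4 h, but 1 fit over all 23 gave the filter, scaling and spread for every time. The 6 libraries at 4 h alone gave 156 calls, 143 of them among the 224. As at 4 h, a knock-out library deviated together with a wild-type library at the other times. These were libraries 14 and 3 at 0 h (r = 0.765) and 20 and 9 at 8 h (r = 0.774). At 24 h they were libraries 23 and 12 (r = 0.707). Whether libraries of different times share animals or cultures is not given by the labels and was not tested. At all 4 times 89 genes were called (30 higher and 59 lower), and 55 were called at 4 h alone (24 higher and 31 lower), which does not show that they differ between times.

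Among genes higher in knock-out cells, Npy had the largest fold change of those named by the rule on size. Npy encodes neuropeptide Y, a peptide transmitter of neurons. It held 29.6, 16.4 and 34.3 CPM in knock-out libraries against 0.149, 0.0887 and 0.0530 CPM in wild-type libraries (8.09 ± 0.56, adjusted p 1.33e-08). Its mean in knock-out cells was 3.74 ± 0.986 CPM at 0 h, 51.2 ± 24.5 CPM at 8 h and 61.1 ± 23.9 CPM at 24 h, while no wild-type mean exceeded 0.126 CPM. The interaction of Npy with 4 h of LPS was not called (2.25 ± 1.09). Gdf3, a ligand of the TGF-beta family, held 27.7, 11.5 and 23.5 CPM in knock-out and 1.82, 2.16 and 2.91 CPM in wild-type libraries (3.18 ± 0.49, adjusted p 0.000649) and was called at all 4 times, as was Lrmda, a leucine-rich melanocyte differentiation gene (4.91, 5.17 and 5.51 CPM against 0.776, 0.473 and 0.450 CPM, log2 fold change 3.20 ± 0.26). Qpct, the glutaminyl cyclase that modifies chemokines and other peptides, held 20.1, 34.5 and 19.6 CPM in knock-out and 5.37, 5.17 and 7.63 CPM in wild-type libraries (2.03 ± 0.31, adjusted p 0.000589). Fkbp9, a prolyl isomerase of the endoplasmic reticulum, was 1.99 ± 0.19 higher on the log2 scale (adjusted p 1.56e-06). Pax4, a transcription factor of pancreatic islets, held 1.70, 1.38 and 1.08 CPM against 0.0597, 0.0296 and 0.132 CPM (4.14 ± 0.66).

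Furin, the proprotein convertase that cleaves many secreted precursors, was among the abundant genes that were higher. It held 880, 726 and 976 CPM in knock-out libraries against 299, 303 and 333 CPM in wild-type libraries (1.47 ± 0.25, adjusted p 0.00231). All knock-out libraries lay far above all wild-type libraries. Its exons overlap Gm44851, also called higher (2.86), and strand was not used in counting. Its neighbours on chromosome 7, the myeloid tyrosine kinase gene Fes (0.95 ± 0.11, adjusted p 2.89e-05) and the semaphorin gene Sema4b (1.40 ± 0.25, adjusted p 0.00352), were higher too, while Ngrn, between Sema4b and Furin, was lower (-0.86 ± 0.14, adjusted p 0.000890). Mcub, an inhibitory partner of the mitochondrial calcium uniporter, was 1.10 ± 0.13 higher (adjusted p 2.82e-05), Psmb4, a proteasome subunit, 0.85 ± 0.13 (adjusted p 0.000651), Pla2g12a, a secreted phospholipase, 1.16 ± 0.13 (adjusted p 2.19e-05), and Khsrp, which promotes decay of AU-rich mRNAs, 0.76 ± 0.12 (adjusted p 0.00129). In the 6 libraries at 4 h alone Khsrp and Sema4b were not called (adjusted p 0.0587 and 0.120). Of the remaining genes on the size rule, Bc1 and Zfp40 lost their call without libraries 13, 16, 19 and 22 (adjusted p 0.0619 and 0.0549) and in the 6 libraries alone (0.202 and 0.209). Ggct, Osbpl3, Epb41l3 and Scube3, with log2 fold changes of 2.02, 1.94, 1.77 and 3.47, each lost it without single libraries (4, 5 or 16 for Ggct, 4, 5, 6 or 17 for Osbpl3 and Scube3, 4 or 6 for Epb41l3, adjusted p 0.0659 to 0.297). Scube3 rests on library 17, with 3.0 CPM against 0.525 and 0.616 CPM in the other knock-out libraries, and had 2.18 without it. Scube3 was also not called in the 6 libraries at 4 h alone (adjusted p 0.215).

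Among genes lower in knock-out cells, Elavl4, the neuronal RNA-binding protein HuD, had no count in any knock-out library and 12.8, 13.3 and 15.7 CPM in the wild-type libraries, at least 473-fold lower with 3 counts over the group as the floor (adjusted p 1.76e-06). It had no knock-out count at 0, 8 or 24 h either, where wild-type cells averaged 1.84 ± 0.870, 7.17 ± 1.95 and 0.786 ± 0.313 CPM. Epas1, which encodes the hypoxia-inducible factor HIF-2 alpha, held 2.96, 3.0 and 3.54 CPM in knock-out libraries against 30.4, 35.0 and 40.3 CPM in wild-type libraries (-3.47 ± 0.25, adjusted p 2.62e-08) and was lower at all 4 times. The list of glycolysis and the hypoxia response, which does not include Epas1, had no call, with Hif1a at 654 ± 193 and 572 ± 197 CPM in knock-out and wild-type cells. Targets of HIF-2 alpha had no list of their own. Fah, the last enzyme of tyrosine breakdown, held 0.926, 1.06 and 0.955 CPM in knock-out and 8.30, 7.83 and 8.08 CPM in wild-type libraries (-3.04 ± 0.21, adjusted p 1.41e-08), and Hyi, the hydroxypyruvate isomerase, 1.76, 2.19 and 1.94 CPM against 10.8, 11.5 and 9.06 CPM (-2.41 ± 0.23). Both were lower at all 4 times. Depp1, a gene controlled by FOXO factors, was also lower at all 4 times (-4.55 ± 0.31 at 4 h). The sialyltransferase gene St6galnac2 appears under 2 identifiers with overlapping exons, 1 with no knock-out count (at least 53.5-fold lower) and 1 at -4.01 ± 0.46.

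Several abundant enzymes and transporters were lower as well. Xdh, the xanthine oxidoreductase that makes uric acid, held 309, 181 and 340 CPM in knock-out libraries against 721, 753 and 535 CPM in wild-type libraries (-1.28 ± 0.23, adjusted p 0.00354), and 162 ± 45.0 and 149 ± 27.8 CPM without LPS, where it was not called. In the 6 libraries alone it was not called (adjusted p 0.0872). Mov10, an RNA helicase, held 298, 240 and 301 CPM in knock-out libraries against 686, 695 and 616 CPM in wild-type libraries (-1.25 ± 0.25, adjusted p 0.0105) and was lower at all 4 times. Its call at 4 h was lost without library 17 (adjusted p 0.069) and without libraries 13, 16, 19 and 22 (0.0634). Abca5, a lipid transporter of lysosomes, was lower at all 4 times (-2.01 ± 0.24 at 4 h, adjusted p 2.84e-05), as was Wdfy1, a protein of endosomes (-2.02 ± 0.30, adjusted p 0.000542). Galnt11, which starts O-linked glycans, was -1.48 ± 0.16 (adjusted p 5.99e-06), and Rftn1, the lipid raft protein raftlin, -0.97 ± 0.18 (adjusted p 0.00489). The call of Rftn1 was lost without libraries 13, 16, 19 and 22 (adjusted p 0.0602).

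None of 17 genes of class I presentation and none of 11 of class II presentation was called, with B2m, the class I light chain, at 3251 ± 597 CPM in knock-out and 3363 ± 112 CPM in wild-type cells. Outside these lists, the non-classical class I gene H2-T24 held 93.7, 76.9 and 70.2 CPM in knock-out libraries against 223, 224 and 234 CPM in wild-type libraries (-1.50 ± 0.21, adjusted p 0.000225). H2-T10 held 33.7, 17.5 and 33.1 CPM against 152, 125 and 109 CPM (-2.20 ± 0.35, adjusted p 0.00104), but it has a near-identical copy and overlapping exons. Cd1d2, a lipid-presenting class I-like gene with the copy Cd1d1, had no knock-out count and 0.448, 0.503 and 1.01 CPM in wild-type libraries, at least 22.1-fold lower.

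Among the lists for other cells, calls fell in those for neutrophils and for erythroid cells. Of 15 neutrophil and precursor genes 3 were called, all higher in knock-out cells (beside 0.503% of all genes), and 14 had a log2 fold change above 0 (median 0.63). Ltf, which encodes lactoferrin, held 15.4, 18.8 and 18.8 CPM in knock-out and 7.76, 9.31 and 9.67 CPM in wild-type libraries (0.99 ± 0.16, adjusted p 0.00163). Ngp, a neutrophil granule protein, held 47.8, 61.1 and 55.7 CPM against 28, 32.6 and 35.6 CPM (0.77 ± 0.16, adjusted p 0.0112), and its call was lost without library 4 or 17 (adjusted p 0.0999 and 0.0658). Camp, which encodes cathelicidin, was the weakest (0.85 ± 0.20, adjusted p 0.0368) and lost its call without any of libraries 4, 5, 6, 16 and 17 (adjusted p 0.0757 to 0.194) and without libraries 13, 16, 19 and 22 (0.189). Neither Ngp nor Camp was called in the 6 libraries at 4 h alone (adjusted p 0.0663 and 0.213). The summed list held 569 and 550 CPM in knock-out libraries 16 and 18 of the first set. Wild-type libraries 4 and 5 of that set held 505 and 526 CPM. In the second set, which has no replicates, it held 381 CPM in knock-out library 17 against 257 CPM in wild-type library 6. The sets were read from the data, and over all 6 libraries the sums of the genotypes overlapped. Ly6g did not pass the filter. In bulk RNA, more cells of a type and more RNA per cell cannot be told apart, and the part of such cells in the other differences was not tested. None of 16 stromal genes was called (median 1.08), with 100 to 243 CPM over knock-out and 106 to 127 CPM over wild-type libraries and the highest value in library 17. Hba-a1, a haemoglobin chain, had 0.741, 0.758 and 0.370 CPM in knock-out libraries and no count in wild-type libraries, at least 21.8-fold higher. It has a near-identical copy, and 7 of 12 erythroid and megakaryocyte markers did not pass the filter. No gene of the lists for dendritic, B, T and NK, mast cells or osteoclasts was called.

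Near-identical copies (at least 95% identity over at least 50% of a transcript) exist for 75 of the 224 (33.5%) and for 14.9% of the genes tested. Of genes with a copy 2.78% were called, and of genes without one 0.968% (149 called, 65 higher and 84 lower). Reads with several alignments were not counted, so a fragment counts only where it aligns once. In several families the expressed parent was higher and its pseudogene lower. Atp6v0c, the proton channel subunit of the vacuolar ATPase, held 243, 200 and 265 CPM in knock-out libraries against 118, 89.2 and 85.0 CPM in wild-type libraries (1.28 ± 0.16), while Atp6v0c-ps2 held 5.34, 4.46 and 4.59 CPM against 175, 170 and 150 CPM (-5.10 ± 0.22). Summed, the family gave 241 ± 33.1 CPM in knock-out and 262 ± 29 CPM in wild-type cells. Likewise Ndufs5, a complex I subunit, was called at 1.35 ± 0.16, but with its copy gave 20.3 ± 3.68 and 19.3 ± 2.91 CPM. Capza1, an actin capping protein, was called at 1.21 ± 0.09 and summed to 174 ± 7.98 and 158 ± 9.53 CPM. Rnaset2a (-0.86) and Rnaset2b (1.17), twin ribonuclease genes called in opposite directions, summed to 84.1 ± 0.538 and 91.8 ± 12.3 CPM.

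Ribosomal protein families followed the same pattern in part. Rps3a1 was called at 1.33 ± 0.11, against -5.41 ± 0.16 for Rps3a3 and -4.37 ± 0.19 for Rps3a2, and the family summed to 552 ± 17.8 CPM in knock-out and 436 ± 32.8 CPM in wild-type cells. Rpl34 was called at 2.81 ± 0.12, with 197, 181 and 191 CPM in knock-out libraries against 25.7, 30.7 and 25.1 CPM in wild-type libraries, and Rpl34-ps1 at -1.99 ± 0.14. A copy in each family was higher along with its parent, Gm7600 of Rps3a1 at 2.89 ± 0.31 and Gm4705 of Rpl34 at 1.70 ± 0.30. The Rpl34 family still differed when summed, with 212 ± 10.2 CPM in knock-out and 100.2 ± 8.03 CPM in wild-type cells. Rps2, the single call among 28 ribosomal protein genes of that list (0.90 ± 0.14, adjusted p 0.000589), has 30 copies in the table. Hmga1, an architectural chromatin protein, and Hmga1b, at 1.66 ± 0.25 and -2.08 ± 0.26, summed to 145 ± 32.8 and 103 ± 2.67 CPM. Rnps1, a splicing factor, was called at 1.61 ± 0.11 and summed to 77.2 ± 3.95 and 48.7 ± 1.40 CPM. Some lower genes stayed lower when summed with their copies. Glo1, the glyoxalase that removes methylglyoxal, had 14.3 ± 3.52 CPM in knock-out and 33.1 ± 2.82 CPM in wild-type cells. Ubald2 had 17.9 ± 2.81 and 53.5 ± 6.17 CPM, and Gpr31b 18.5 ± 3.25 and 61.1 ± 7.74 CPM. Other lower genes did not, such as Hmga1b above. Gm12666, called at -4.86, summed to 29.03 ± 4.45 CPM in knock-out and 23.74 ± 5.41 CPM in wild-type cells. For Dynlt1b, called at -1.17, the summed levels of the genotypes overlapped. The call of Glo1 alone (-1.01 ± 0.21) was lost without library 6, 16 or 18 (adjusted p 0.0609 to 0.0977), and that of Rnaset2a without library 4, 5, 17 or 18 (0.0505 to 0.0854). Without libraries 13, 16, 19 and 22 the calls of Glo1, Rnaset2a and Rnaset2b were lost (0.137, 0.106 and 0.0677). Glo1 was also not called in the 6 libraries at 4 h alone (adjusted p 0.0629). The summed values carry no test.

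**Figure D4:**
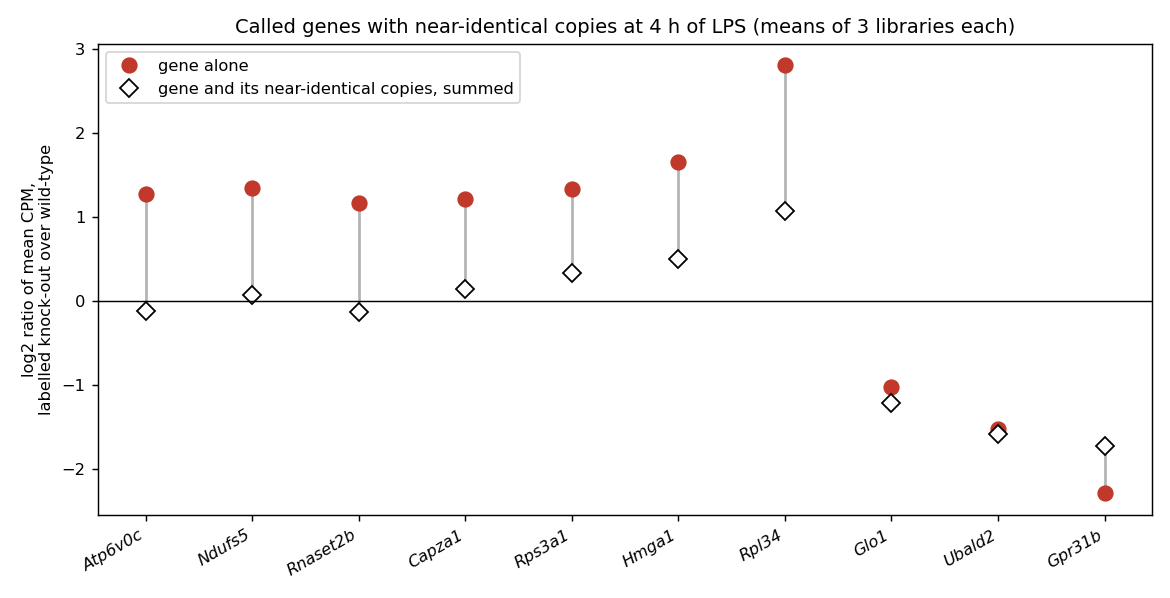
Log2 ratio of mean CPM, labelled knock-out over wild-type at 4 h of LPS (y axis), for 10 called genes (x axis), each alone (red circles) and summed with its near-identical copies (open diamonds). Summed, Atp6v0c, Ndufs5, Rnaset2b and Capza1 lie between -0.13 and 0.14, while Rpl34 stays above and Glo1, Ubald2 and Gpr31b stay below 0.

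The called genes were unevenly spread over the genome. Chromosome 17 held 72 of them, 7.32% of its 984 tested genes and 32.1% of all calls, with 30 higher and 42 lower. Chromosome 6 held 28 (3.10%) and chromosome 3 held 18 (1.99%), while chromosomes 15 and 16 held 1 each. No gene within 20 Mb of Selenow on chromosome 7 was called (0 of 480 tested). Among windows of 10 Mb with at least 4 calls, the share was highest from 0 to 10 Mb of chromosome 17. It held 13 of 59 genes (22%), among them Tagap1, Rsph3a, Rnaset2a and Rnaset2b. All 13 but Tmem242 and 3300005D01Rik have a near-identical copy, beside 33.5% of all calls. How fragments were split between copies in this window is uncertain. The exons of Tagap1, Rnaset2a and Rnaset2b each overlap another called gene there, and a fragment can count for both. Over the whole genome 16 pairs of called genes overlap in this way, so not all calls are separate. The window from 70 to 80 Mb, with 9 of 63 genes (14.3%), holds Nlrc4, Xdh, Qpct and Cdc42ep3. On chromosome 7 the window from 80 to 90 Mb held 10 of 76 genes (13.2%), 6 higher and 4 lower, with Furin, Fes, Sema4b and Fah, and on chromosome 6 the window from 50 to 60 Mb held 6 of 59 genes, all higher, with Gsdme, Osbpl3, Ggct and Fkbp9. On chromosome 11 the window from 110 to 120 Mb held 12 of 148 genes, 10 of them lower, with Abca5, Ubald2, Cygb and St6galnac2. Without chromosome 17, 143 genes were called.

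**Figure D5:**
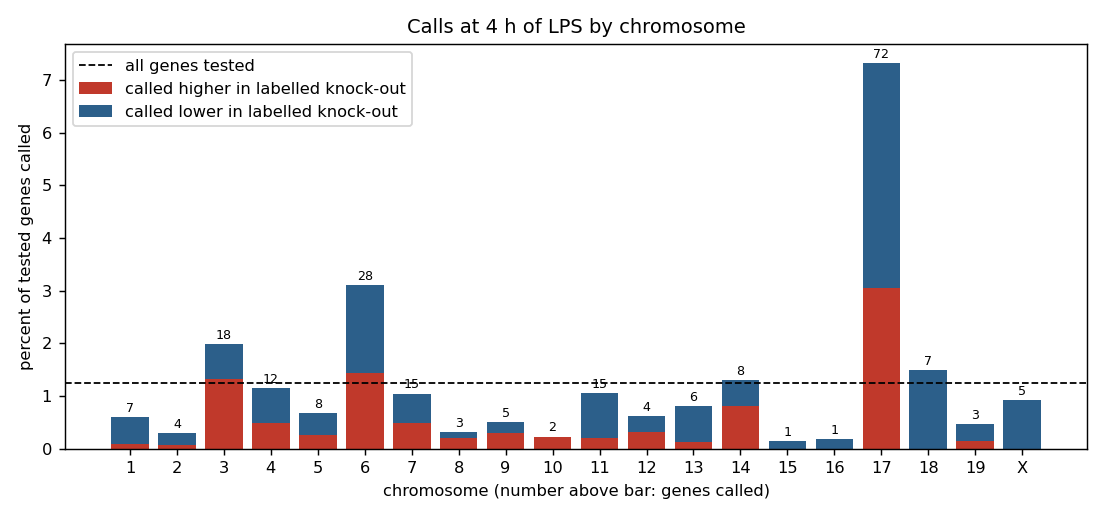
Percent of tested genes called at 4 h of LPS (y axis, from 0) on each chromosome (x axis), higher in labelled knock-out in red and lower in blue, with the number called above each bar and the 1.24% of all genes as a dashed line. Chromosome 17 stands out with 72 calls, 7.32% of its genes.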

How the data were processed

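RNA of 23 BMDM libraries was sequenced as paired ends. The authors' deposited table holds raw counts per gene: per the file headers, featureCounts 2.0.1 counted read pairs over exons by gene, without strand, for every gene a pair overlapped, and without reads of several alignments. Ensembl release 101 on GRCm38 was the annotation, and HISAT2 and DESeq2 are named in the submitters' processing notes, with no version or role. Gene symbols are from GENCODE mouse release 21.

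The counts were fitted with edgeR 4.0.16 in R 4.3.3 (filterByExpr, TMM scaling, quasi-likelihood F-test) over all 23 libraries with 1 mean for each of 8 groups, and p-values were adjusted over 18083 genes. SEs were derived from the F statistic of each gene (its square root divided into the absolute log2 fold change). Genes were named by rule: Selenow, the 15 higher and 15 lower called genes of largest fold change with at least 1 CPM and a proper symbol, the called members of each list and its 3 most abundant members. All other genes named were chosen after their values were seen. The comparison and the lists were chosen with earlier results of these data known. Alternatives used DESeq2 1.42.0 and limma 3.58.1, and copies were found with BLAST+ 2.17.0. On simulated counts for 18083 genes the fit recovered 98% and 94% of genes changed by -2 and 2 on the log2 scale. It recovered 68% and 74% of those changed by -1 and 1, with 7 false among 174 calls. The changed genes had a mean of at least 1 CPM. Simulated counts were drawn independently around group means, without the deviations that the real libraries share across genotypes. These shares may therefore not hold for the real libraries.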

Additional observations from a re-analysis of the deposited data

Results flagged for a closer look

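The genotype difference at 4 h differed from that at 0 h, by edgeR's interaction test adjusted over all genes, in 8 genes. The difference of differences was -3.16 for Nlrc4 (adjusted p 0.000569), -4.15 for Tagap1 and -3.99 for Gm49719, whose exons overlap (4.83e-06 each), -2.30 for Cdc42ep3 (0.00502) and -1.16 for Pcyox1 (0.0220). It was -1.25 for Gm7367 (0.0382), the copy of Ubald2. Gm6548 had 0.956 (0.0220), with 57.9 CPM in knock-out and 11.3 CPM in wild-type cells at 4 h and 20.4 and 7.75 CPM at 0 h. Asb4 had -5.94 (0.0220), with 0.757 CPM in knock-out and 0.00632 CPM in wild-type cells at 0 h and 0.180 and 0.131 CPM at 4 h, where it was not called.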

How the results depend on the processing

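The 224 calls became 304 with DESeq2 (217 shared), 225 with limma-voom, 224 with RLE and 220 with upper-quartile scaling, 227 without a filter, 205 at 1 CPM or more in 3 libraries, 153 at an adjusted p under 0.01 and 156 in the 6 libraries alone. Testing against a fold of 1.5 left 123. Leaving out 1 library gave 176 to 217. Among alternatives chosen after seeing the data, 144 were called without libraries 13, 16, 19 and 22, 328 with a term for the library set, 674 in the first library set (16 and 18 against 4 and 5 at 4 h), 136 without genes with a copy and 143 without chromosome 17. The cause of these shifts was not tested, except that the last 2 test fewer genes. Selenow ranged from -1.25 to -0.511 when 1 library was left out, and was -1.26 (adjusted p 7.26e-05) without libraries 13, 16, 19 and 22, which were picked by their Selenow level. Of 1458 alternative values for 72 named genes 1359 kept their call and direction, 99 lost the call and 0 changed sign, and 46 genes were called throughout. No paired analysis was possible because the library numbers run from 1 to 23 and the labels share no number between groups, and the library sets above were read from the data. With 3 libraries a group, changes near 1 on the log2 scale can be missed.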
